A study of Mus musculus with 12 samples.

Results

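Fibroblast growth factors (FGFs) are secreted proteins that bind receptor tyrosine kinases together with heparan sulphate, and the bound receptor signals through adaptor proteins to the MAPK cascade, which in turn raises feedback inhibitors and ETS transcription factors. In lung, Fgf10 and Fgf7 are made by mesenchyme and act on the epithelial splice form of Fgfr2, a signal needed for branching during development and for maintenance of alveolar type II cells in the adult. Fgf1 and Fgf2 bind several receptors, Fgf18 is a mesenchymal and alveolar factor that acts through Fgfr3 and other receptors, and Fgfr1 is the broadly used receptor of mesenchyme.

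Here 9 genes of this family were followed in single-nucleus RNA-Seq of mouse lung: the ligands Fgf1, Fgf2, Fgf7, Fgf10 and Fgf18 and the receptors Fgfr1, Fgfr2, Fgfr3 and Fgfr4. They were taken by name, as 9 of the 31053 genes in the count matrices, and all 9 were found in each of the 12 libraries. The question addressed was in which cells each ligand and receptor was found, and whether its level differed after bleomycin injury or with NVP-BHG712, a small molecule inhibitor of the receptor tyrosine kinase EphB4.

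All mice were WT C57BL/6J animals, 7 weeks old when bleomycin or PBS was placed in the trachea. From day 5 they received NVP-BHG712 or its vehicle by mouth once daily for 5 days, and lungs were taken on day 14. The 4 groups of 3 libraries, 1 mouse each, were PBS with vehicle (PBS_vehicle), PBS with NVP-BHG712 (PBS_NVP), bleomycin with vehicle (Bleo_vehicle) and bleomycin with NVP-BHG712 (Bleo_NVP). Bleomycin causes an acute, patchy injury of young lungs, and the inhibitor began after the injury had been set. A nucleus holds young, partly unspliced RNA, so the values below are nuclear RNA levels and not protein.

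The libraries held 1183 to 13583 barcodes and 3556084 to 61947690 unique molecular identifiers (UMIs), and 44611 nuclei were kept. The Bleo_vehicle libraries stood apart in RNA quality, with a median mitochondrial share of 2.56%, 1.32% and 0.668% of UMIs against at most 0.0496% in the other 9 libraries, and 2 of them had the lowest median depths, 925 and 1253 UMIs per barcode. They also carry a label of batch, 6 for replicates 1 and 2 and 7 for replicate 3. The other groups are labelled by run (runs 1 to 3 for PBS, run 4 for Bleo_NVP). Injury, treatment and batch or run therefore cannot be told apart in any comparison with a bleomycin group, and the part of RNA quality in those results was not tested. For some results, values from nuclei of higher depth and lower mitochondrial share are given. This choice leaves out single nuclei and cannot remove a difference of a whole library.

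Nuclei were clustered without the 9 genes or any other Fgf or Fgfr gene, and clusters were named from marker lists. Each short name below stands for a marker-defined class (fibroblast means fibroblast-like, and so on), since no cell annotation was used. Of the 18 named classes, fibroblasts made up 22.3% of all kept nuclei. Their largest cluster (5066 nuclei) was led by genes such as Adra1a, Itga8, Bmper and Scube2, and their other clusters by genes such as Tnc, Opcml and Kctd16. Alveolar type II nuclei were led by Lamp3, Slc34a2 and Etv5, and alveolar type I nuclei by Rtkn2, Hopx and Col4a3. Club nuclei were led by Cyp2f2, and aerocyte capillary nuclei by Ednrb and Car4. Levels are given as CPM, the UMIs of a gene for every 1000000 UMIs of the class in a library, averaged over the libraries with at least 20 nuclei of the class.

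Apart from Fgf1, placed below, the genes lie as follows in the mouse genome (GRCm38, GENCODE M21): Fgf2 at chr3:37348346-37410108 on the plus strand, Fgf7 at chr2:126034658-126091185 (plus), Fgf10 at chr13:118669791-118792115 (plus), Fgf18 at chr11:33117430-33147400 (minus), Fgfr1 at chr8:25513654-25575718 (plus), Fgfr2 at chr7:130162451-133123350 (minus), Fgfr3 at chr5:33721674-33737068 (plus) and Fgfr4 at chr13:55152640-55168759 (plus). Fgf18 and Fgfr4 overlap no other annotated gene. Genes on the opposite strand overlap Fgf1 (Arhgap26), Fgf2 (Fgf2os and Nudt6), Fgf7 (Fam227b), Fgf10 (Gm16263), Fgfr1 (Gm16159) and Fgfr3 (G630022F23Rik). The Fgfr2 record spans 2960900 bases and covers many other genes, and its lowest mean level in any ranked class was 97.7 CPM, in alveolar macrophages; the part of those genes in Fgfr2 counts was not tested.

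Since Fgfr4, Fgf10 and Fgfr2 are the genes whose levels differed between groups (below), the bases just before their starts are shown, from the RefSeq promoter table of GRCm38.p6, 5′ to 3′ on the gene's own strand. The Fgfr4 stretch, chr13:55152568-55152639 (plus), is the 72 bases before its most 5′ annotated exon. It ends 178 bases before the RefSeq start, so the bases next to that start are not shown for Fgfr4. The Fgf10 stretch, chr13:118714599-118714698 (plus), and the Fgfr2 stretch, chr7:130266809-130266908 (minus), are the 100 bases before the RefSeq start, and both lie inside a longer GENCODE record of the same gene but in no annotated exon.
Fgfr4: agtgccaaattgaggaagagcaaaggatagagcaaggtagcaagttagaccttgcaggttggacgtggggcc
Fgf10: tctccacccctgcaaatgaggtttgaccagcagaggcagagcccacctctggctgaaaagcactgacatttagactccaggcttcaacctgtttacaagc
Fgfr2: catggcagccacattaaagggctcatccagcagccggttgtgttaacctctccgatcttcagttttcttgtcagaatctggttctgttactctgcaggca
No base is in capitals because none of 3 motifs searched on both strands was found in these letters: the GC box GGGCGG, the TATA box TATAAA and the ETS core CCGGAAG, which do not overlap one another. In the same 100-base window the 3 motifs stood in 24.7%, 5.56% and 4.52% of 32851 promoters. In the 72-base window of Fgfr4, from 250 to 178 bases before the start, they stood in 7.35%, 3.91% and 1.00%. The absence says only that these letters are not in these windows.

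Among the ligands, Fgf10, Fgf7 and Fgf2 were found mainly in fibroblasts. Fibroblasts held 94.9% of all Fgf10 UMIs, 92.1% of Fgf7 UMIs and 88.0% of Fgf2 UMIs. The mean Fgf10 level in fibroblasts was 495 ± 171 CPM (SD, n = 12), against 18.4 CPM in T or NK cells, the next class in order, and fibroblasts were higher in 8 of 8 libraries with both classes (adjusted p = 0.0234, exact two-sided sign-flip permutation test over libraries, adjusted over 27 pairs of neighbouring classes). Fgf7 stood at 253 ± 37 CPM in fibroblasts and at 14.5 CPM in ciliated nuclei, the next class (higher in 12 of 12 libraries, exact permutation adjusted p = 0.00659). Fgf2 stood at 213 ± 61 CPM in fibroblasts and at 87.9 CPM in mesothelial nuclei (higher in 8 of 8 libraries, exact permutation adjusted p = 0.0234). The classes below were compared in few libraries: mesothelial nuclei had more Fgf2 than B cells, 87.9 against 21.8 CPM, in 4 of 4 libraries, where the exact permutation test cannot give a p under 0.125. Fibroblasts were the highest class for these 3 ligands in every alternative, but the step to the next class, which itself changed in some, often missed the threshold with 1 library fewer. For Fgf10 it did so without replicate 1 or 2 of PBS_vehicle, 1 or 2 of PBS_NVP or any 1 of Bleo_vehicle (exact permutation adjusted p from 0.0527 to 0.153) and for Fgf2 without replicate 1 of PBS_vehicle, 1 of PBS_NVP or any 1 of Bleo_vehicle (0.0527 to 0.0603). For Fgf7 it did so without replicate 1 or 2 of either PBS group or 1 or 3 of Bleo_vehicle (0.0844 to 0.169).

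Fgf1, at chr18:38838673-38929472 on the minus strand, and Fgf18 were found mainly outside the fibroblasts. Alveolar type I nuclei held 66.5% of Fgf1 UMIs and aerocyte capillaries, the endothelial cells that face them, 11.9%. The levels in these classes, 428 ± 102 and 392 ± 55 CPM (n = 12), were not separated by their spread, with alveolar type I higher in 7 of 12 libraries (exact permutation adjusted p = 0.341). Aerocytes stood above club nuclei, at 104 CPM, in 12 of 12 libraries (exact permutation adjusted p = 0.00659). Fgf18 was low in every class taken whole, while a fibroblast subcluster with peribronchial markers, described below, stood at 73.7 ± 61 CPM (n = 10). The highest class mean of Fgf18 was 24.1 ± 19 CPM in mesothelial nuclei, not separated from 15.1 ± 5.3 CPM in alveolar type I nuclei (exact permutation adjusted p = 0.318). The latter stood above venous endothelium, 4.96 CPM, in 10 of 12 libraries (exact permutation adjusted p = 0.0234). By number, alveolar type I nuclei held 70.4% of Fgf18 UMIs.

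**Figure D1:**
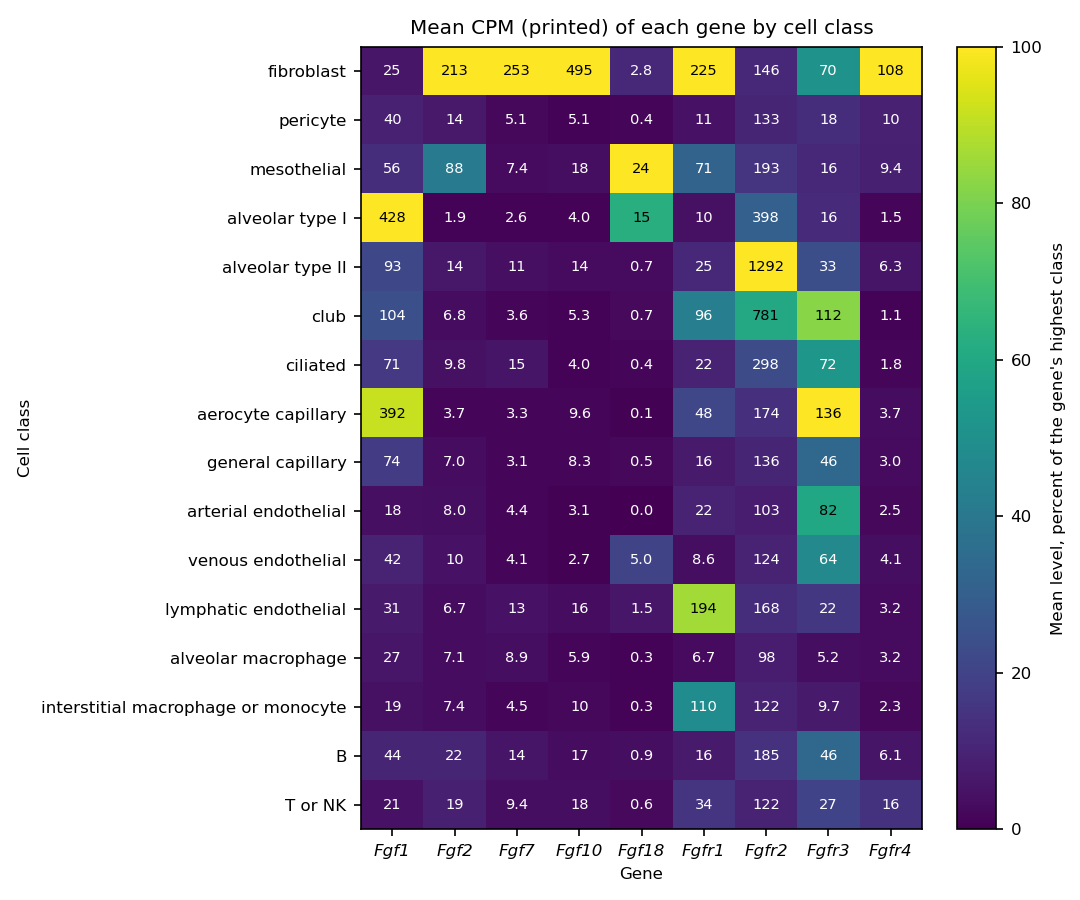
Mean level (CPM, printed in each cell) of the 5 ligands and 4 receptors (columns) in 16 marker-defined classes (rows); the colour is the level as a percent of that gene's highest class, so that colours compare classes within a gene and not genes. Brighter cells are higher. Fgf2, Fgf7, Fgf10, Fgfr1 and Fgfr4 have their brightest cell in fibroblasts, Fgfr2 in alveolar type II, and Fgf1 has almost equal cells in alveolar type I and aerocyte capillaries.

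The receptors divided between epithelium, fibroblasts and endothelium. Fgfr2 was the epithelial receptor, with a level falling in steps from alveolar type II (1292 ± 547 CPM) to club (781 ± 236 CPM), alveolar type I (398 CPM) and ciliated nuclei (298 CPM), each step passing the test (higher in 10, 11 and 11 of 12 libraries, with exact permutation adjusted p of 0.0105, 0.00989 and 0.00879). Because of their number, alveolar type I nuclei held nearly as many Fgfr2 UMIs (29.6%) as alveolar type II nuclei (31.1%), while fibroblasts held 11.7% and club nuclei 9.64%. Fgfr4 was the most restricted receptor by share of UMIs, with 91.1% in fibroblasts, where it stood at 108 ± 43 CPM against 15.7 CPM in T or NK cells (higher in 8 of 8 libraries, exact permutation adjusted p = 0.0234). This step was lost without replicate 1 or 2 of either PBS group or any 1 of Bleo_vehicle (exact permutation adjusted p from 0.0527 to 0.0603), while that of Fgfr2 from alveolar type II to club nuclei kept its call without any single library.

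Fgfr1 and Fgfr3 were spread more widely. Fibroblasts held 72.1% of Fgfr1 UMIs, but their level, 225 ± 35 CPM, was not separated from that in lymphatic endothelium, 194 ± 89 CPM (exact permutation adjusted p = 0.666), and interstitial macrophages or monocytes followed with 110 CPM. Fgfr3 was highest in aerocytes at 136 ± 52 CPM, not separated from club nuclei at 112 ± 21 CPM (exact permutation adjusted p = 0.318), with arterial endothelium at 81.6 CPM and ciliated nuclei at 71.7 CPM next. Although fibroblasts held 40.0% of Fgfr3 UMIs, their Fgfr3 level was 69.9 CPM. Over the 9 genes, the highest class differed from the next for 5.

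The share of nuclei with at least 1 UMI followed the levels and lay above that of lymphocytes, which should lack these ligands. Fgf10 UMIs were found in 45.1% of fibroblasts against 2.18% of T or NK cells and 2.22% of B cells, at median depths of 3172, 1256 and 1336 UMIs. After thinning each nucleus to 1000 UMIs and leaving out shallower nuclei (1238 of 9968 fibroblasts, 205 of 551 T or NK cells and 172 of 495 B cells), the shares were 27.2%, 1.45% and 0.929%. For Fgfr4 they were 25.5% of fibroblasts, 1.82% of T or NK cells and 1.82% of B cells, and 9.02%, 0.867% and 1.24% after thinning. Fgfr2 UMIs were found in 76.5% of alveolar type II nuclei (57.0% after thinning, without 660 shallower nuclei of 4657), but also in 16.9% of T or NK and 19.6% of B cells (11.0% and 11.8% after thinning), so that the level of Fgfr2 in classes with such shares cannot be separated from background. In the order above, the levels of Fgf10 and Fgfr4 in T or NK cells rest on such background shares too.

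Across groups, each gene was tested in the classes with enough nuclei, and in the sum of all kept nuclei (whole lung), where it passed a filter on low counts, by edgeR's quasi-likelihood test on UMIs summed per library, with p-values adjusted by the Benjamini-Hochberg method over all genes of that class. Fgfr2 passed the filter in all 11 fits, Fgf1 and Fgfr3 in 9, Fgfr1 in 8, Fgf2 and Fgf10 in 3, and Fgf7, Fgf18 and Fgfr4 in 2, which gave 49 gene and class pairs in each of 5 comparisons. In Bleo_vehicle against PBS_vehicle 3 of the 49 pairs were called at an adjusted p under 0.05, all lower; over all genes, 2.98% of pairs were called and 0.711% were called lower. In Bleo_NVP against Bleo_vehicle 4 pairs were called, all higher, against 4.3% of all pairs in either direction and 1.34% higher. At an unadjusted p under 0.05 the counts were 15 and 20. Many genes reached that level: 2675 and 3713 of the 14437 tested in the whole lung, and 1802 and 2447 of 10531 in fibroblasts. The median log2 fold change of the 49 pairs was −0.13 and 0.11, beside medians of −0.03 to 0.01 and −0.05 to 0.06 over all genes in the 11 fits. These 2 comparisons share the Bleo_vehicle libraries, and their calls are given side by side and not as independent results.

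Fgfr4, the FGF receptor concentrated in fibroblasts, fell after bleomycin with vehicle. In fibroblasts the PBS_vehicle libraries held 140.8, 112.2 and 131.6 CPM, the PBS_NVP libraries 133.0, 124.7 and 163.2 CPM, the Bleo_vehicle libraries 18.0, 46.8 and 69.9 CPM and the Bleo_NVP libraries 128.5, 98.9 and 131.9 CPM. Every Bleo_vehicle library lay below all 9 others. The log2 fold change was −1.44 (SE 0.30, edgeR adjusted p = 0.0220) in Bleo_vehicle against PBS_vehicle and 1.41 (SE 0.30, edgeR adjusted p = 0.0180) in Bleo_NVP against Bleo_vehicle, where 3.27% and 6.72% of all genes tested in fibroblasts were called. The lowest library rests on 16 Fgfr4 UMIs from 505 fibroblasts, and the other Bleo_vehicle libraries on 151 and 641 UMIs.

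In the whole lung sum Fgfr4 showed the same order, with 39.1, 36.7 and 46.5 CPM in PBS_vehicle, 35.4, 43.6 and 49.8 CPM in PBS_NVP, 5.61, 14.9 and 15.5 CPM in Bleo_vehicle and 40.6, 33.0 and 42.7 CPM in Bleo_NVP. The Bleo_vehicle libraries lay below all 9 others, which overlapped one another. The log2 fold changes were −1.66 (SE 0.29, edgeR adjusted p = 0.0156) and 1.66 (SE 0.29, edgeR adjusted p = 0.0109), with 2.43% and 5.56% of genes called in the whole lung. In such a sum, fewer cells of a type and less RNA per cell cannot be told apart. Fibroblasts made up 22.1% of nuclei in Bleo_vehicle, 23.8% in PBS_vehicle and 26.0% in Bleo_NVP. Such a sum weighs a class by its UMIs and not by its nuclei. By UMIs, the fibroblast share was lower in every Bleo_vehicle library than in any PBS_vehicle or Bleo_NVP library. The part of this share in the whole lung values of Fgfr4 and Fgf10 was not tested. The whole lung call against PBS_vehicle was lost without replicate 2 or 3 of that group (edgeR adjusted p = 0.0572 and 0.0718) and in the 6 libraries alone (0.115), and the call for Bleo_NVP without its replicate 1 or 3 (0.0532 and 0.0629).

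The Fgfr4 difference in fibroblasts kept its direction in nuclei holding 500 UMIs or more with a mitochondrial share of 1% or less, at −1.35 (edgeR adjusted p = 0.0370) and 1.32 (edgeR adjusted p = 0.0315). It depended on single libraries and on the shared estimate of spread: fitted on the 6 libraries compared alone, it missed the threshold in both comparisons (edgeR adjusted p = 0.119 and 0.0602), as it did without replicate 2 of Bleo_vehicle (0.0772 and 0.0656), without replicate 2 or 3 of PBS_vehicle in the first comparison (0.0677 and 0.0839), and without replicate 1 or 3 of Bleo_NVP in the second (0.0720 and 0.0832).

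Fgfr2 in alveolar type II nuclei, where the receptor takes up the fibroblast signals Fgf7 and Fgf10, fell as well. The 3 PBS_vehicle libraries held 1411, 1371 and 1814 CPM, the PBS_NVP libraries 1463, 1234 and 1719 CPM, the Bleo_vehicle libraries 202.6, 398.6 and 818.7 CPM and the Bleo_NVP libraries 1848, 1443 and 1782 CPM. Again the Bleo_vehicle libraries lay below all 9 others, and they also differed among themselves, with 71, 628 and 4527 Fgfr2 UMIs. The log2 fold change was −1.55 (SE 0.33, edgeR adjusted p = 0.0224) against PBS_vehicle and 1.72 (SE 0.33, edgeR adjusted p = 0.0148) for Bleo_NVP against Bleo_vehicle, in a class where 3.32% and 4.61% of genes were called.

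The alveolar type II class itself differed in the same libraries. The summed level of 10 alveolar type II markers, among them Sftpc and Lamp3, was 7786 CPM (3993 to 11795) in Bleo_vehicle against 14225 CPM (13536 to 14934) in PBS_vehicle and 13818 CPM in Bleo_NVP, while the 11 alveolar type I markers summed to 968 CPM in PBS_vehicle and 1912 CPM in Bleo_vehicle; their part in the Fgfr2 result was not tested. In nuclei holding 500 UMIs or more with a mitochondrial share of 1% or less the Fgfr2 log2 fold changes were −1.51 (edgeR adjusted p = 0.0189) and 1.67 (edgeR adjusted p = 0.0120). The call was lost in 5 of 20 alternatives in each comparison, with log2 values from −2.13 to −1.23 in the first and 1.41 to 2.31 in the second: in the 6 libraries alone (edgeR adjusted p = 0.137 and 0.0978), without replicate 2 of Bleo_vehicle (0.101 and 0.0694), without replicate 1, 2 or 3 of PBS_vehicle in the first (0.0546, 0.0658 and 0.0838) and without replicate 1, 2 or 3 of Bleo_NVP in the second (0.0732, 0.0516 and 0.0573).

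Fgfr2 in club nuclei followed the same order of groups without passing the test. PBS_vehicle libraries held 828.9, 991.0 and 829.0 CPM, Bleo_vehicle libraries 237.3, 442.9 and 707.4 CPM and Bleo_NVP libraries 1015, 997.6 and 742.8 CPM, with Bleo_vehicle below both other groups (log2 −0.74, SE 0.25, edgeR adjusted p = 0.140, and 0.80, edgeR adjusted p = 0.107). In the whole lung Fgfr2 gave log2 values of −0.44 (edgeR adjusted p = 0.203) and 0.55 (edgeR adjusted p = 0.0773).

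**Figure D2:**
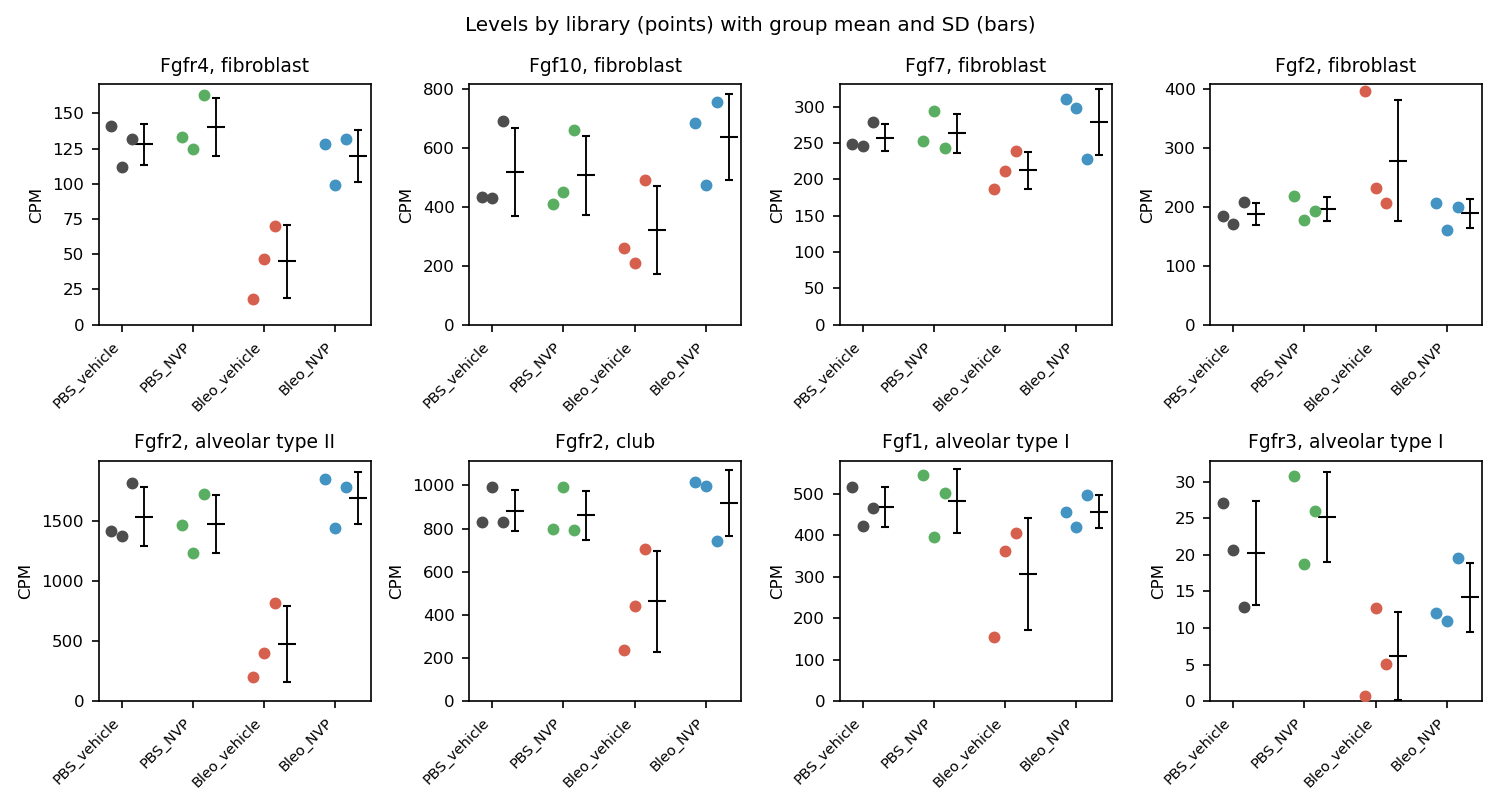
Level (CPM, linear axis from 0) of 8 gene and class pairs in the 4 groups; each point is 1 library and the bar with its whiskers is the mean ± SD of 3 libraries. For Fgfr4 in fibroblasts and Fgfr2 in alveolar type II the 3 Bleo_vehicle points lie below all other points, while for Fgf2 in fibroblasts they overlap the PBS_vehicle points.

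Among the ligands, Fgf10 was the only one with a called difference. In the whole lung sum the PBS_vehicle libraries held 117.2, 134.0 and 237.4 CPM, the PBS_NVP libraries 103.7, 151.9 and 193.9 CPM, the Bleo_vehicle libraries 65.7, 59.0 and 104.0 CPM and the Bleo_NVP libraries 203.5, 153.9 and 235.4 CPM. Bleo_NVP lay above Bleo_vehicle without overlap (log2 1.40, SE 0.34, edgeR adjusted p = 0.0361), whereas Bleo_vehicle against PBS_vehicle did not pass (−1.06, edgeR adjusted p = 0.121), although those libraries did not overlap either. Within fibroblasts the Fgf10 levels were 433.2, 429.5 and 689.6 CPM in PBS_vehicle, 261.4, 209.6 and 490.5 CPM in Bleo_vehicle and 681.9, 472.5 and 755.2 CPM in Bleo_NVP, and the groups overlapped. The within-class values of −0.72 (edgeR adjusted p = 0.286) and 1.08 (edgeR adjusted p = 0.0700) did not pass. The whole lung call was lost in 8 of 20 alternatives, among them nuclei holding 500 UMIs or more with a mitochondrial share of 1% or less (1.12, edgeR adjusted p = 0.0959), no filter on low counts (0.0652), and the fits without replicate 1 or 2 of Bleo_vehicle (0.0972 and 0.108), replicate 1, 2 or 3 of Bleo_NVP (0.109, 0.0569 and 0.136) or replicate 2 of PBS_NVP (0.0531).

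Fgf7, the other fibroblast ligand of Fgfr2, changed less. Its fibroblast levels were 248, 246 and 279 CPM in PBS_vehicle, 187, 211 and 239 CPM in Bleo_vehicle and 311, 298 and 227 CPM in Bleo_NVP. The Bleo_vehicle libraries lay below all PBS_vehicle libraries by a small margin and overlapped Bleo_NVP (−0.30, edgeR adjusted p = 0.417, and 0.48, edgeR adjusted p = 0.115).

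Fgf2, a growth factor for fibroblasts, had the opposite order of means. Its fibroblast levels were 185, 172 and 208 CPM in PBS_vehicle, 397, 233 and 207 CPM in Bleo_vehicle and 207, 160 and 200 CPM in Bleo_NVP. Only 2 Bleo_vehicle libraries exceeded the PBS_vehicle range, and the log2 value of 0.53 did not pass (edgeR adjusted p = 0.223). In alveolar type II nuclei, where Fgf2 is scarce with 1 to 90 UMIs per library, it stood at 10.5, 6.97 and 5.24 CPM in PBS_vehicle and at 28.5, 37.4 and 16.3 CPM in Bleo_vehicle (log2 1.80, edgeR adjusted p = 0.161). Markers of fibroblasts in fibrosis were also higher in that class, at a summed 461 CPM against 69.1 CPM in PBS_vehicle; their part in the Fgf2 value was not tested.

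In alveolar type I nuclei, Fgf1 stood at 516.6, 421.5 and 465.8 CPM in PBS_vehicle, 153.4, 360.9 and 404.2 CPM in Bleo_vehicle and 454.6, 418.2 and 496.1 CPM in Bleo_NVP. The Bleo_vehicle libraries lay below both of these groups, but 2 of them were close to the others (−0.57, edgeR adjusted p = 0.207, and 0.59, edgeR adjusted p = 0.169). Fgfr3 in the same nuclei was low, at 27.1, 20.7 and 12.9 CPM in PBS_vehicle and 0.759, 12.7 and 5.09 CPM in Bleo_vehicle (−1.61, edgeR adjusted p = 0.0734). For Fgf18, 20.1, 15.7 and 13.6 CPM in PBS_vehicle and 18.2, 5.45 and 9.76 CPM in Bleo_vehicle overlapped.

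Fgfr1 in fibroblasts was almost level across groups: 261, 184 and 234 CPM in PBS_vehicle, 305, 208 and 243 CPM in PBS_NVP, 246, 192 and 197 CPM in Bleo_vehicle and 224, 195 and 210 CPM in Bleo_NVP, with a log2 value of −0.12 in Bleo_vehicle against PBS_vehicle (edgeR adjusted p = 0.779). Larger Fgfr1 differences came from endothelium without passing the threshold. In aerocytes Fgfr1 stood at 31.3 ± 16 CPM in PBS_vehicle, 97.2 ± 65 CPM in Bleo_vehicle and 24.2 ± 11 CPM in Bleo_NVP (log2 1.37, edgeR adjusted p = 0.412, and −1.79, edgeR adjusted p = 0.193), and in general capillaries at 11.3 ± 8.1, 38.9 ± 28 and 8.34 ± 8.5 CPM (1.98, edgeR adjusted p = 0.189, and −2.15, edgeR adjusted p = 0.194). Fgfr3 in general capillaries had means of 40.7 CPM in PBS_vehicle, 82.3 CPM in Bleo_vehicle and 19.1 CPM in Bleo_NVP, and the last 2 groups did not overlap (−1.87, edgeR adjusted p = 0.212).

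Without injury the inhibitor gave no call among the 49 pairs, and 1 pair, Fgfr2 in alveolar macrophages, had an unadjusted p under 0.05 (DESeq2 made 0 calls). Over all genes, 0% of pairs were called in PBS_NVP against PBS_vehicle. Each SE here uses the spread estimated over all 12 libraries. The intervals of ±2 SE bound what these 6 libraries could show: the log2 difference was 0.10 (−0.47 to 0.68) for Fgfr4 in fibroblasts, −0.07 (−0.72 to 0.57) for Fgfr2 in alveolar type II and −0.06 (−0.72 to 0.59) for Fgf10 in fibroblasts.

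Bleo_NVP against PBS_NVP likewise gave no call among the 49 pairs, with 1 pair at an unadjusted p under 0.05 and 0 calls by DESeq2, and 0% of all pairs were called. Here Fgfr4 in fibroblasts differed by −0.13 (−0.71 to 0.45), Fgfr2 in alveolar type II by 0.25 (−0.40 to 0.90) and Fgf10 in the whole lung by 0.49 (−0.18 to 1.15). The difference between the inhibitor effects with and without injury was tested as an interaction, which called 0 of the 49 pairs by edgeR, 11 at an unadjusted p under 0.05 and 3 by DESeq2, while 0.375% of all pairs were called. An unadjusted interaction p under 0.05 was reached by 2076 of 14437 genes in the whole lung and 1397 of 10531 in fibroblasts. The interaction values were 1.61 for Fgfr4 in the whole lung (edgeR adjusted p = 0.128), 1.80 for Fgfr2 in alveolar type II (edgeR adjusted p = 0.166), 1.55 for Fgf10 in the whole lung (edgeR adjusted p = 0.204) and 1.30 for Fgfr4 in fibroblasts (edgeR adjusted p = 0.217).

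**Figure D3:**
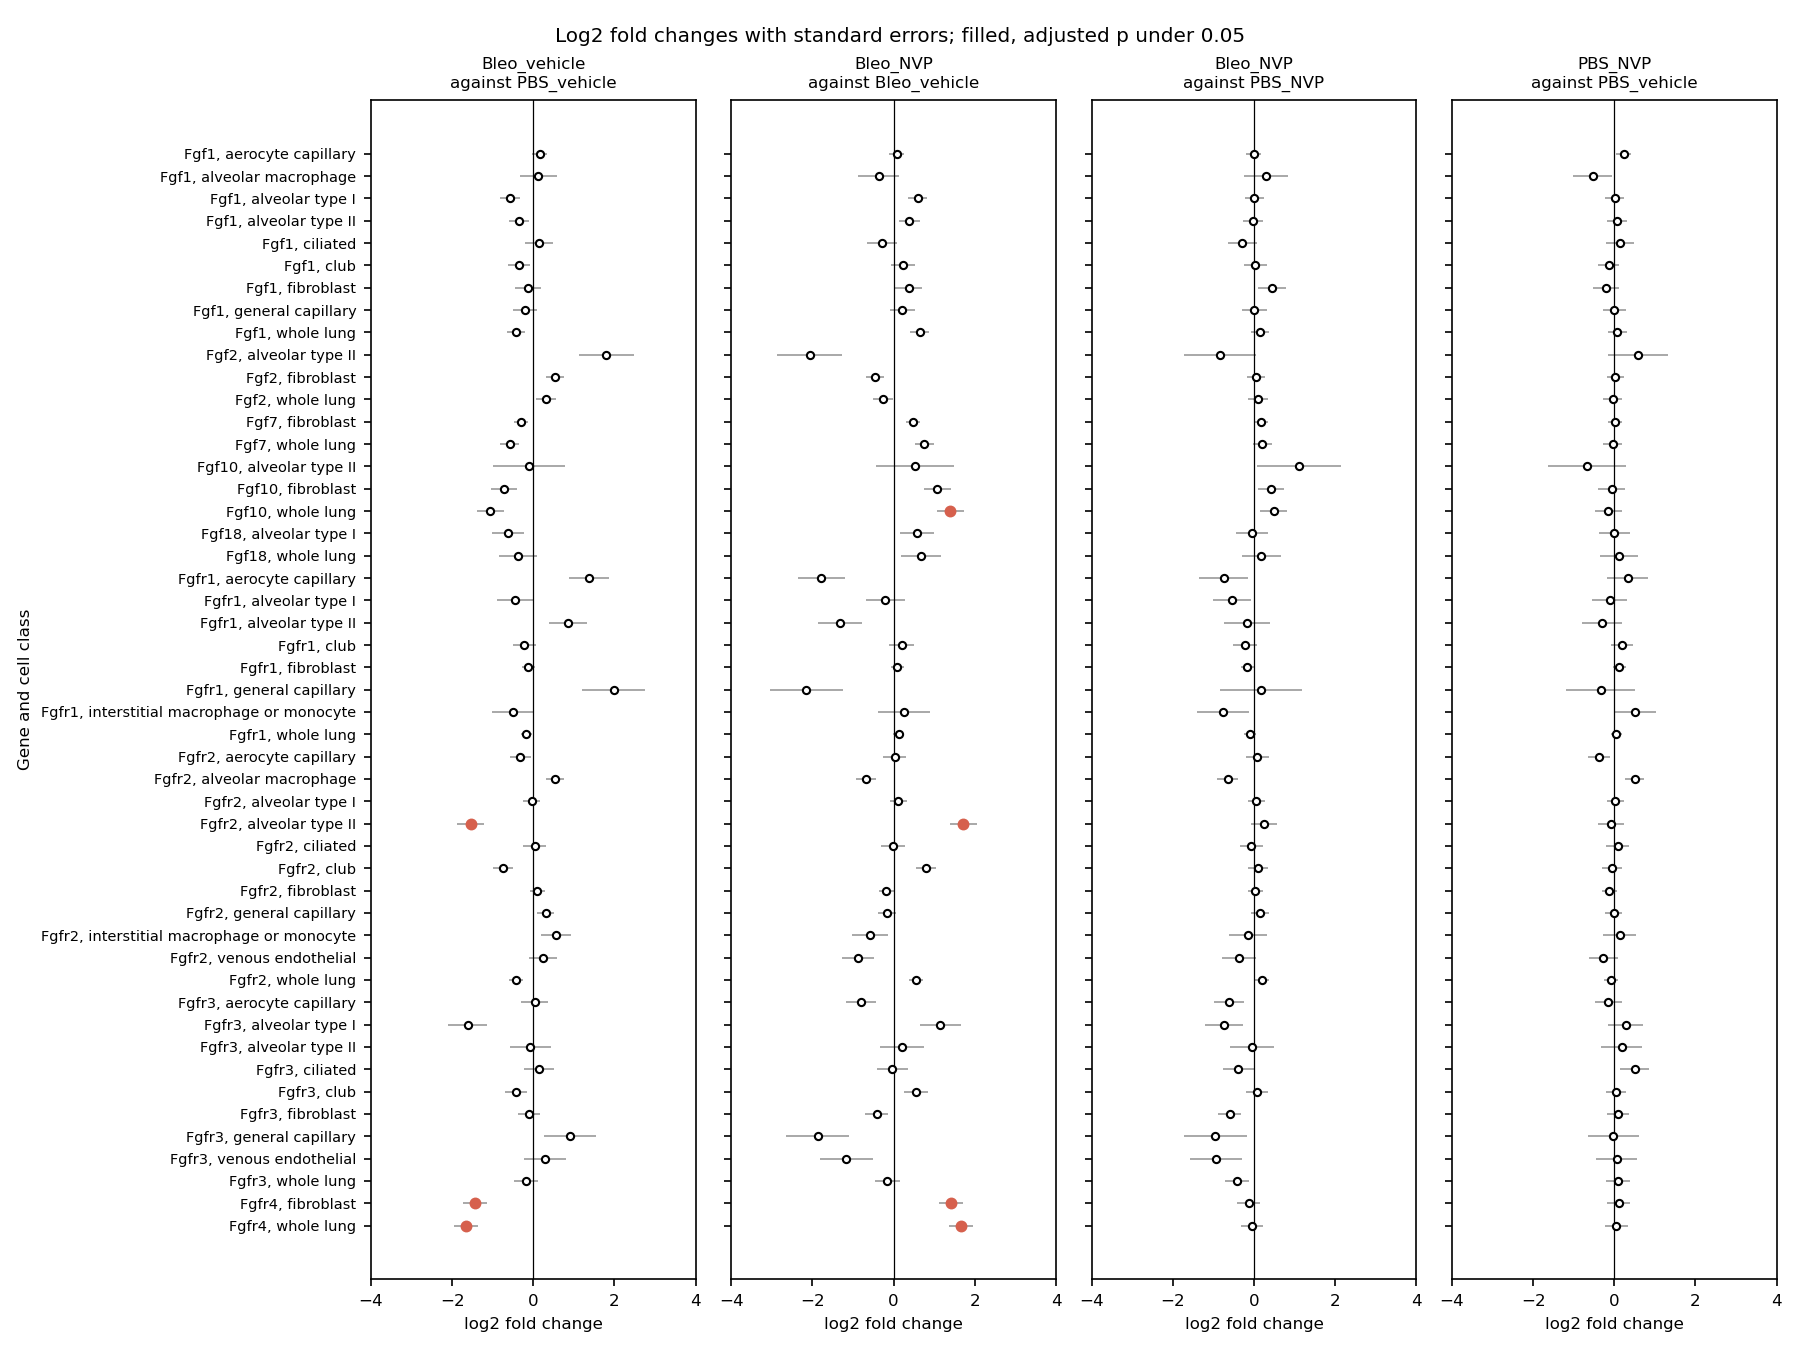
Log2 fold change with its SE (horizontal axis) of the 49 gene and class pairs (rows) in 4 comparisons (panels); filled points have an edgeR adjusted p under 0.05. Filled points are 3 in Bleo_vehicle against PBS_vehicle, all left of 0, and 4 in Bleo_NVP against Bleo_vehicle, all right of 0, with none in the other panels.

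The fibroblast class was then divided to see where its ligands and receptors lay. The 9968 fibroblasts gave 8 subclusters, again made without FGF genes and without genes that differed between groups. Subclusters 0 (3320 nuclei, led by Tmem117, Cntn1 and Colq) and 2 (2084 nuclei) had too few raised markers for a name. Of subcluster 0, 96.4% came from the fibroblast cluster with alveolar fibroblast markers. Of subcluster 2, 54.1% came from the cluster with adventitial markers and 37.4% from that with alveolar markers. Subcluster 3 carried adventitial and 4 peribronchial fibroblast markers. Subcluster 5 (464 nuclei) had Fst, Adam12 and Tnc of the fibrotic fibroblast list among its leading genes. Subcluster 1 (2500 nuclei) was shallow and led by haemoglobin and mitochondrial genes, and 6 and 7 (276 and 207 nuclei) carried capillary and alveolar type I markers. Levels in subclusters are a description, with no test between them.

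Fgfr4 was highest in subcluster 0, at 152 ± 57 CPM, and stood at 70.8 ± 24 CPM in subcluster 2 (n = 12 each), 9.42 ± 18 CPM in the peribronchial (n = 10) and 4.39 ± 5.3 CPM in the adventitial subcluster (n = 11). The fibrotic subcluster 5 had enough nuclei in 5 libraries, 3 of them Bleo_vehicle, so its means are not set in this order. Its Fgfr4 level was 155 CPM in replicate 1 of PBS_vehicle and 86.8 CPM in replicate 1 of PBS_NVP, above subcluster 2 of the same libraries (85.4 and 71.9 CPM), and 18.8, 28.7 and 23.5 CPM in the Bleo_vehicle libraries. Fgf10 had another order, with 667 ± 258 CPM in subcluster 2, 580 ± 310 CPM in the adventitial subcluster, 435 CPM in subcluster 0 and 410 ± 319 CPM in the peribronchial subcluster. Subcluster 5, at 215 ± 62 CPM (n = 5), lay below subclusters 0 and 2 in each of its 5 libraries. In the peribronchial subcluster Bleo_vehicle was not lowest. Its libraries held 1081, 351 and 640 CPM (88, 36 and 168 UMIs), and PBS_vehicle libraries 629, 562 and 65.7 CPM. Replicates 2 and 3 of Bleo_NVP held 82.8 and 297 CPM (3 and 10 UMIs), and replicate 1 had under 20 nuclei. Fgf2 in subcluster 5 stood at 929, 723 and 667 CPM in the Bleo_vehicle libraries, 256 CPM in replicate 1 of PBS_vehicle and 513 CPM in replicate 1 of PBS_NVP. The peribronchial subcluster of these PBS libraries held 356 and 336 CPM, so that subcluster 5 was the lower of the pair in PBS_vehicle, and the means of subclusters 0 to 4 over all their libraries were 166 to 254 CPM. The peribronchial subcluster held 74.8% of the Fgf18 UMIs of fibroblasts, 89 in number, at 73.7 ± 61 CPM, had the highest Fgfr2 level, 358 ± 121 CPM against 114 to 163 CPM in subclusters 0 to 3 and 5, and almost no Fgfr3, 3.19 ± 6.3 CPM. Over subclusters 0 to 5, Fgf7 ran from 185 to 289 CPM and Fgfr1 from 193 to 307 CPM.

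**Figure D4:**
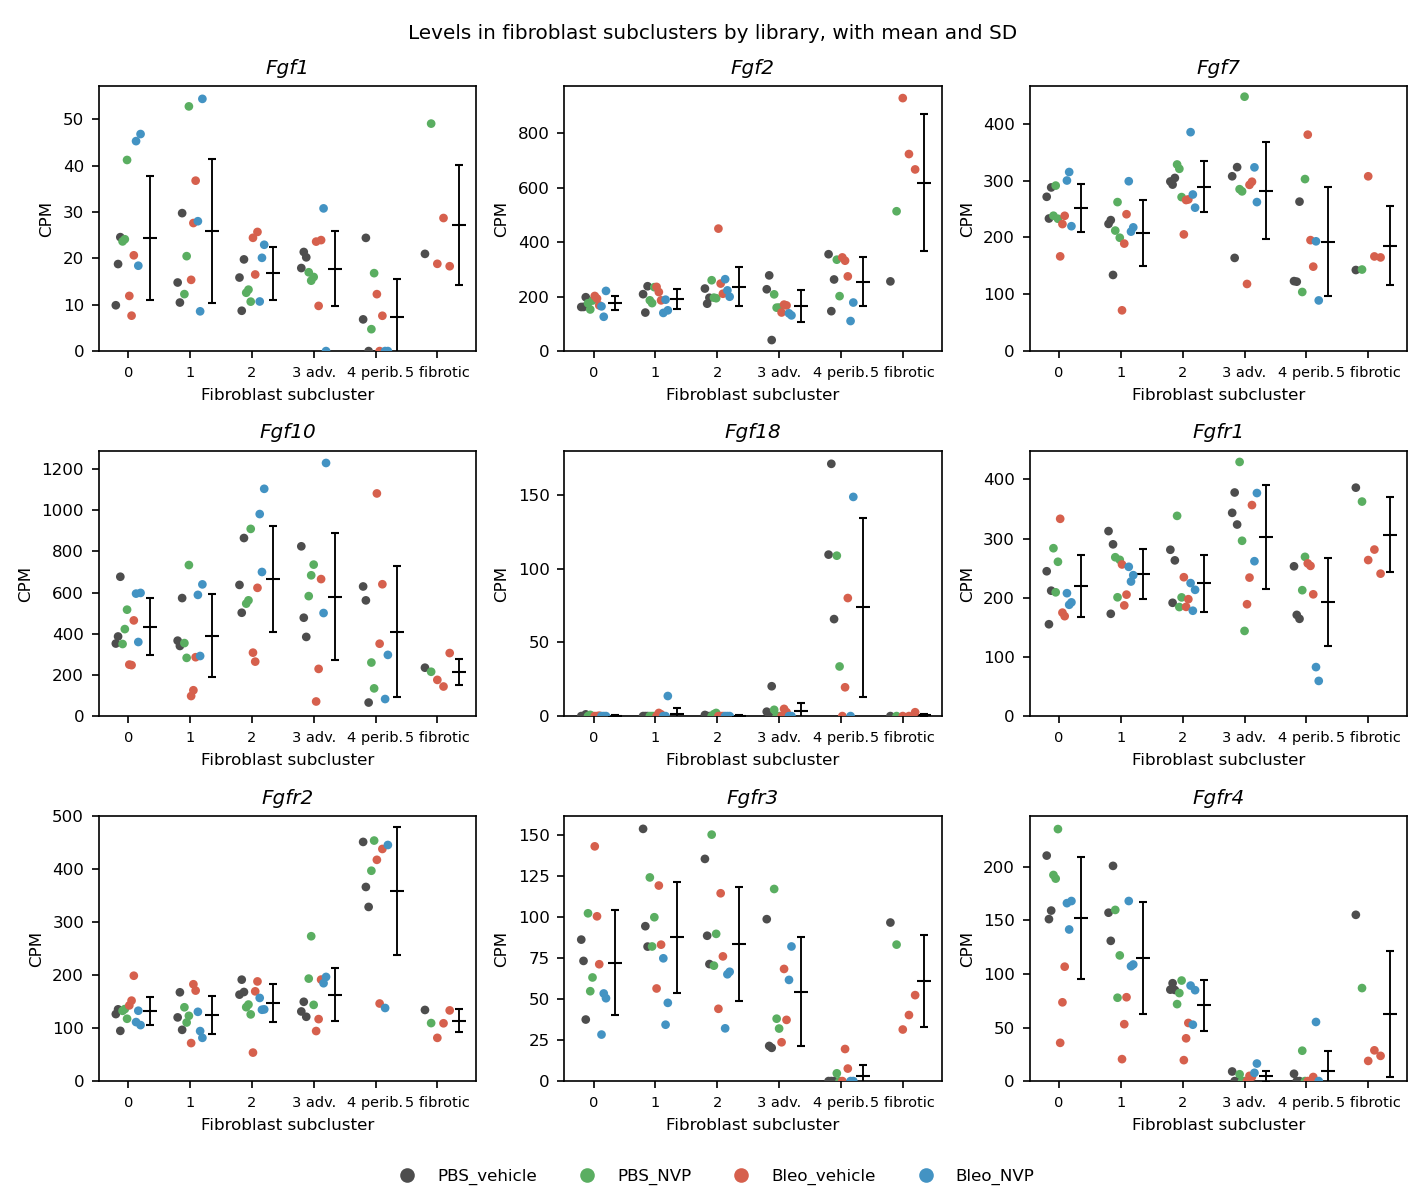
Level (CPM) of each of the 9 genes (panels) in 6 fibroblast subclusters (horizontal axis); each point is 1 library with at least 20 nuclei of the subcluster, coloured by group. Fgfr4 is near 0 in the adventitial and peribronchial subclusters, Fgf18 is highest in the peribronchial subcluster, and the highest Fgf2 points are the Bleo_vehicle libraries in the fibrotic subcluster, which has 5 points.

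Makeup of the fibroblast class differed between groups beside the Fgfr4 result. Subcluster 0 made up 22.1 ± 14.3% of fibroblasts in Bleo_vehicle and 37.8 ± 2.0% in PBS_vehicle, and subcluster 5 made up 7.53 ± 4.34% and 3.42 ± 0.75%. The 12 alveolar fibroblast markers summed to 13260 CPM (9581 to 17207) in Bleo_vehicle against 23051 CPM (21453 to 24980) in PBS_vehicle and 24488 CPM in Bleo_NVP, and the 13 fibrotic markers to 2507 CPM (1097 to 5227) against 722 CPM (583 to 843) and 667 CPM. Markers of alveolar type II cells in the fibroblast class stood at 1086 CPM (373 to 1459) in Bleo_vehicle against 184 CPM in PBS_vehicle.

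Within subcluster 0 the Fgfr4 difference remained. PBS_vehicle libraries held 210.5, 151.2 and 159.2 CPM, PBS_NVP libraries 192.4, 189.0 and 235.3 CPM, Bleo_vehicle libraries 35.7, 73.5 and 106.8 CPM and Bleo_NVP libraries 166.1, 141.5 and 168.1 CPM, again with all Bleo_vehicle libraries lowest. The lowest value rests on 3 UMIs in 32 nuclei. The log2 values were −1.03 (edgeR adjusted p = 0.0106) and 0.93 (edgeR adjusted p = 0.0206), where 2.3% and 3.47% of genes were called. Subcluster 1 gave −1.34 (edgeR adjusted p = 0.0303, 3.61% of genes called) and 1.002 (edgeR adjusted p = 0.142), and subcluster 2 gave −1.005 (edgeR adjusted p = 0.111) and 0.82 (edgeR adjusted p = 0.195). With subclusters 1, 6 and 7 left out, a choice made after the data were seen, Fgfr4 in fibroblasts stood at −1.37 (edgeR adjusted p = 0.0294) and 1.31 (edgeR adjusted p = 0.0311).

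Around the 9 genes, 91 other genes of FGF signalling were listed in 6 groups, of which 74 could be tested in at least 1 class, as 457 gene and class pairs. In Bleo_vehicle against PBS_vehicle 12 pairs were called higher and 0 lower, and in Bleo_NVP against Bleo_vehicle 4 were called higher and 13 lower, beside the 2.98% and 4.3% of all pairs given above. Counted in either direction, the lists together were called no more often than all genes in both comparisons. Of all pairs, 0.711% were called lower in the first and 1.34% higher in the second. The calls below are therefore given gene by gene. The other 3 comparisons called none of the 457 by edgeR. Of the 29 calls, 3 were made in all 15 alternatives tried: Sulf1 in fibroblasts (Bleo_NVP against Bleo_vehicle), and Sulf2 in alveolar type I nuclei and Fgf13 in alveolar macrophages (Bleo_vehicle against PBS_vehicle). The other 26 were lost without 1 or more single libraries, and the highest adjusted p reached is given for each group of genes.

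Co-receptors and binding proteins gave 3 higher calls of 67 pairs after bleomycin and 1 higher and 4 lower calls with the inhibitor. Gpc4, a glypican, rose in fibroblasts from 15.9 to 47.7 CPM (log2 1.52, edgeR adjusted p = 0.0397) and was lower in Bleo_NVP (−1.40, edgeR adjusted p = 0.0414). Gpc6, another glypican, rose in alveolar type II nuclei from 5.49 to 53.0 CPM (log2 2.95, edgeR adjusted p = 0.0415) and in club nuclei from 6.36 to 41.4 CPM (2.37, edgeR adjusted p = 0.0407), the same epithelial classes in which Fgfr2 was lowest in Bleo_vehicle. Gpc6 is also a leading gene of a fibroblast cluster with adventitial markers; in alveolar type II nuclei the adventitial list summed to 235 CPM in Bleo_vehicle against 524 CPM in PBS_vehicle and the fibrotic list to 461 against 69.1 CPM, and their part in the Gpc6 values was not tested. Gpc3 was higher in the whole lung of Bleo_NVP than of Bleo_vehicle, at 354 against 109 CPM (1.73, edgeR adjusted p = 0.0456), while Flrt2 in alveolar type I nuclei (−2.68, edgeR adjusted p = 0.0308) and the proteoglycan Hspg2 in alveolar type II nuclei (−1.85, edgeR adjusted p = 0.0472) were lower. Sdc1, a syndecan, stood at 0.320 CPM in fibroblasts of Bleo_NVP and 8.76 CPM in those of Bleo_vehicle (edgeR adjusted p = 0.0142). Leaving out single libraries raised the edgeR adjusted p of these calls to at most 0.206, for Hspg2 without replicate 2 of Bleo_vehicle.

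Enzymes that modify heparan sulphate, the sugar chain through which FGFs bind their receptors, gave 3 higher calls of 80 pairs after bleomycin and 2 higher and 4 lower calls with the inhibitor. Sulf1, an extracellular sulphatase that trims these chains, had the clearest change in fibroblasts: 73.2 ± 17 CPM in PBS_vehicle, 372 ± 263 CPM in Bleo_vehicle and 53.8 CPM in Bleo_NVP (log2 2.31, edgeR adjusted p = 0.0145, and −2.67, edgeR adjusted p = 0.00730). The related Sulf2 stood at 0.486 CPM in alveolar type I nuclei of PBS_vehicle, 11.0 ± 4.5 CPM in Bleo_vehicle (edgeR adjusted p = 0.00593) and 0.777 CPM in Bleo_NVP (edgeR adjusted p = 0.0116), and was lower in club nuclei of Bleo_NVP (−1.71, edgeR adjusted p = 0.0124). Hs2st1 rose in alveolar macrophages from 120 to 212 CPM (0.88, edgeR adjusted p = 0.0130) and was lower with the inhibitor in general capillaries (−1.11, edgeR adjusted p = 0.0465). Glce in fibroblasts (1.04, edgeR adjusted p = 0.0349) and Ndst1 in alveolar type I nuclei (0.73, edgeR adjusted p = 0.0399) were higher in Bleo_NVP than in Bleo_vehicle. Sulf1 against PBS_vehicle missed the threshold without replicate 2 or 3 of that group (edgeR adjusted p = 0.0530 and 0.0814), and the highest p of these calls was 0.413, for Hs2st1 in capillaries without replicate 2 of Bleo_vehicle.

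Feedback inhibitors and target genes gave 5 higher calls of 91 pairs after bleomycin and 4 lower calls with the inhibitor, most of them in alveolar type I nuclei. There the cyclin Ccnd1 rose from 2.22 to 11.9 CPM (log2 2.48, edgeR adjusted p = 0.0295), Phlda1 from 10.5 to 47.5 CPM (2.23, edgeR adjusted p = 0.0312), the ETS factor Etv5 from 5.01 to 17.9 CPM (1.93, edgeR adjusted p = 0.0413) and Spred2, an inhibitor of the MAPK cascade, from 17.3 to 48.7 CPM (1.501, edgeR adjusted p = 0.0374). Etv5 is also an alveolar type II marker, and the alveolar type I markers of the same nuclei summed to 13020 CPM (9173 to 15992) in Bleo_vehicle against 19944 CPM in PBS_vehicle; their part in these values was not tested. Etv4 stood at 0.426 CPM in the whole lung of PBS_vehicle and 5.63 CPM in Bleo_vehicle (edgeR adjusted p = 0.0318). With the inhibitor, Spred2 in alveolar type I nuclei (−1.91, edgeR adjusted p = 0.0165), Phlda1 in alveolar type II nuclei (−1.12, edgeR adjusted p = 0.0313) and the whole lung (−1.18, edgeR adjusted p = 0.0244) and Etv5 in ciliated nuclei (−2.63, edgeR adjusted p = 0.0458) were lower. The highest edgeR adjusted p among these calls with 1 library left out was 0.40, for Etv5 in ciliated nuclei without replicate 2 of Bleo_vehicle.

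Adaptors and MAPK cascade genes barely moved, with 0 calls of 207 pairs after bleomycin and 1 with the inhibitor, the kinase Rps6ka3 in alveolar macrophages (log2 0.76, edgeR adjusted p = 0.0411). Of the FGF homologous factors, intracellular proteins that bind sodium channels and are not secreted, Fgf13 rose in alveolar macrophages from 5.57 to 60.5 ± 19 CPM (3.83, edgeR adjusted p = 0.00118) and was lower in Bleo_NVP (−2.98, edgeR adjusted p = 0.0123, and at most 0.0913 with 1 library left out), the only called member among 11 pairs. The other secreted FGFs were almost undetected, with 1 pair tested and 0 called. The median log2 fold changes of the lists in Bleo_vehicle against PBS_vehicle were 0.22 for co-receptors, 0.21 for heparan sulphate enzymes, 0.21 for feedback and target genes, 0.58 for homologous factors and 0.02 for adaptors, and in Bleo_NVP against Bleo_vehicle −0.13, −0.23, −0.30, −0.24 and 0.05 in the same order, beside the medians near 0 over all genes given above.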

How the data were processed

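Nuclei were sorted from snap-frozen, perfused lungs and sequenced by the 10x Genomics 3′ method. The authors deposited UMI counts per gene and barcode for each library, made with Cell Ranger against mm10; the submitters' processing notes name version 7.0 and Seurat 4.4.1, and the matrix headers version 7.2.0. Whether intron reads were counted is not given in the sources used here.

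From these counts, barcodes with 200 to 6000 genes and at most 5% mitochondrial UMIs were kept (47319 of 49163). The 2708 (5.72%) with the highest simulated-doublet scores in their library were removed, leaving 44611. Their number was set in advance, at 0.8% for every 1000 nuclei of a library, and is not a measured doublet rate. It was 11 of 1179 in replicate 1 of Bleo_NVP and 1410 of 13277 in replicate 3 of Bleo_vehicle. Nuclei were clustered with scanpy 1.11.5 (2000 variable genes, 30 components, Harmony over libraries, Leiden resolution 1), with all Fgf and Fgfr genes left out. UMIs were summed per library and class (at least 20 nuclei) and tested with edgeR 4.0.16 (quasi-likelihood, TMM, filterByExpr) over 12 libraries and 4 group means; a call is a Benjamini-Hochberg adjusted p under 0.05 over all genes of a class. p-values measure the spread between libraries of a group, which holds mouse differences. Within the PBS groups it also holds run differences, and within Bleo_vehicle a difference of batch label. Run or batch differences that go with the groups are not part of that spread. Same-numbered libraries deviated together between PBS_vehicle and PBS_NVP (r = 0.883, 0.64 and 0.743), but not in every pair of the other comparisons. DESeq2 1.42.0 and other settings were alternatives. Scripts were tested on simulated data. At most 26 barcodes were shared by a pair of libraries.

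All 9 genes were reported in every comparison whatever their values; of the pathway lists, called genes were named (at most 5 per class and comparison). The members and lists were chosen with earlier results of these data known.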

Additional observations from a re-analysis of the deposited data

How the results depend on the processing

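No called gene and class pair reversed its direction under any alternative run. The number of the 49 pairs called in Bleo_vehicle against PBS_vehicle, 3 as reported, was 5 with DESeq2, 7 without a filter on low counts, 0 with only the libraries compared and 0 to 10 with 1 library left out; for Bleo_NVP against Bleo_vehicle, 4 as reported, these counts were 7, 11, 2 and 0 to 13; for the interaction, 0 as reported, they were 3 with DESeq2, 2 without the filter, 1 without batch correction and 0 to 2 with 1 library left out. Both upper ends came from leaving out replicate 3 of Bleo_vehicle, the library with the most UMIs (10 and 13 pairs). That library is also the only one of its group labelled batch 7, and has the lowest mitochondrial share of the group. Without replicate 2 or 3 of PBS_vehicle no pair was called in the first comparison, and without replicate 1 or 3 of Bleo_NVP none in the second. Calls among the 457 pathway pairs, 29 over both comparisons, were 71 with DESeq2, 132 without the filter and 12 to 134 with 1 library left out, the last without replicate 3 of Bleo_vehicle. The number of genes whose highest class differed from the next, 5, was 3 with doublets kept and 1 to 5 with 1 library left out. With doublets kept, Fgf7 and Fgf10 missed the threshold (exact permutation adjusted p = 0.0938 each), as did Fgfr4 with the stricter choice of nuclei (exact permutation adjusted p = 0.0703). The cause of these shifts was not tested.

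With the replicate number as a block the pairs called were 6, 10 and 3 for Bleo_vehicle against PBS_vehicle, Bleo_NVP against Bleo_vehicle and the interaction. Outside the PBS groups the numbers paired the samples only in part. Over all 4 groups, deviations of same-numbered libraries correlated at a median of 0.21 (−0.20 to 0.88, 10 of 18 pairs over 0.1), against −0.138 for other pairs (7 of 36 over 0.1). By replicate, same-numbered PBS_NVP and Bleo_NVP libraries had r of −0.20, 0.468 and 0.461. Those of Bleo_vehicle and Bleo_NVP had 0.0197, 0.259 and −0.119. PBS_NVP against PBS_vehicle, where the numbers did pair the libraries, had 0 pairs called with the block as without it. Depth limits the low genes: Fgf18 and Fgfr3 in alveolar type I and Fgf2 in alveolar type II rest on few UMIs in the shallow libraries, so that a difference there may not be detectable.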

Other observations

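Genes whose mean log2(CPM + 1) over the 18 named classes was most like that of a member were listed as a description, among 12291 genes and with no test, since the classes share libraries. The fibroblast genes had the closest matches: Ptprd for Fgf2 (r = 0.957), Adra1a for Fgf10 (0.949), Fbln1 (0.933) and Bmper (0.919) for Fgfr4, and Ppp4r4 for Fgf7 (0.900). Fgfr2 was most like Sec14l4 (0.907) and Epn3 (0.899), Fgf18 most like Fzd2 (0.907), and Fgf1 most like Nectin3 (0.869) and Emp2 (0.816). Fgfr1 and Fgfr3, found over several lineages, had weaker matches, Nr6a1os (0.799) and Nr4a2 (0.782).

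A small alveolar type I cluster of 139 nuclei came to 95.7% from 1 library, replicate 2 of PBS_vehicle. With it left out, a choice made after the data were seen, Fgf1 in alveolar type I nuclei differed by −0.50 (edgeR adjusted p = 0.374) and Fgfr3 by −1.71 (edgeR adjusted p = 0.114) in Bleo_vehicle against PBS_vehicle.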
